A study of Mus musculus with 6 samples.

Results

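The granulocytic transcription factors described here are 7 genes: the C/EBP family members Cebpa, Cebpb, Cebpd, Cebpe and Cebpg, the ETS factor gene Spi1 (PU.1) and the zinc-finger repressor gene Gfi1. They were chosen by name, with earlier results of these data known. Each was matched to the probesets annotated with that symbol alone. All 7 had 1 such probeset and lay above the filter on dim probesets, among 14994 genes tested. KSL SLAM cells, a sorted population of mouse marrow rich in haematopoietic stem cells, were profiled on MoGene 1.0 ST arrays. They were positive for c-Kit, Sca-1 and CD150 and negative for lineage markers, CD48 and CD41. Mice were given either PBS, which the series also calls saline, or G-CSF for 7 days; G-CSF was injected under the skin at 125 mcg/kg, 2 times a day, and no schedule is stated for PBS. G-CSF, granulocyte colony-stimulating factor, is the main cytokine of neutrophil production. Each group had 3 arrays, each of RNA from a separate pool of 5 to 10 mice, amplified before hybridization. The sources used here give no strain, sex or age for the mice.

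C/EBP proteins are basic leucine zipper factors that bind DNA as dimers with one another. C/EBP alpha drives granulocyte production at steady state, in concert with PU.1, which opens the myeloid programme. C/EBP beta is known for emergency granulopoiesis, the accelerated output of neutrophils under infection or cytokine stimulation, and G-CSF is one of the cytokines that evoke it. C/EBP delta is an inflammatory relative, C/EBP epsilon governs the late granule genes, and C/EBP gamma is a short partner that lacks an activation domain of its own. Gfi1 represses monocytic and stem cell genes and is needed for neutrophils to form. The comparison of G-CSF with PBS arrays asked whether transcripts of the steady-state factor Cebpa and the emergency factor Cebpb shifted against each other in the stem cell fraction.

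The start-site regions of the steady-state and the emergency factor genes are shown first, because the comparison turns on this pair. Of the 7 genes, 4 had an entry in the RefSeq promoter table of build GRCm38.p6, which gives 250 bases before and 50 bases after each start. Cebpa lies at chr7:35119043-35119342 on the plus strand and Cebpb at chr2:167688665-167688964 on the plus strand. Capitals mark matches to TGACG, the core of the cAMP response element, on either strand.
Cebpa: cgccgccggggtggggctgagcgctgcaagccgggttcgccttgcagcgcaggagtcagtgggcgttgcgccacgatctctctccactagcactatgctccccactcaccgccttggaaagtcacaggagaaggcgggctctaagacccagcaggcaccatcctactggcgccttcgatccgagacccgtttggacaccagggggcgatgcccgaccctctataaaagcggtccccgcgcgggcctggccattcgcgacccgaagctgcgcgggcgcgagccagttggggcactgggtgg
Cebpb: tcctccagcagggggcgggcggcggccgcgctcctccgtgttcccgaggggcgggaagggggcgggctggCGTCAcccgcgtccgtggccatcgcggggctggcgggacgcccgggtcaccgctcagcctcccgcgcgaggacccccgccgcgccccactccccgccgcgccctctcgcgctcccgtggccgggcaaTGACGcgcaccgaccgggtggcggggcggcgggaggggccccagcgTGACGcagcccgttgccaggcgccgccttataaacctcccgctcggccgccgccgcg
The Cebpb region held 3 matches to TGACG, beginning at positions -180, -53 and -7 from the start, and the Cebpa region held 0. Of all 32851 promoters of the same length in the table, 20.8% held at least 1 match. Searches of both strands for TTNNGNAA (the paired C/EBP site, in 40.7% of all promoters), TTCNNNGAA (STAT, 8.3%), GAGGAA (PU.1, 28.3%) and AAATCA (Gfi1, 14%) found 0 matches in either region. The 2 Gfi1 start sites and the Cebpg start were searched too, and the upstream Gfi1 region alone had a match, TTGCTGAA of the C/EBP pattern, beginning at position -143. None of these matches overlapped another. Base composition differed, with 67.3% G and C in the Cebpa region and 80.7% in the Cebpb region against a median of 52.7% over all promoters. The shares of all promoters given above were not matched for base composition. Cebpa and Cebpg are neighbours on chromosome 7, with annotated starts 62.7 kb apart. These matches are letters in a window, and binding was not measured.

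Spi1 had the largest measured difference of the 7 factors, 1.93-fold with G-CSF, and the C/EBP transcripts and Gfi1 differed by 1.34-fold or less in either direction. After adjustment over all genes, 0 of the 7 factors passed at an adjusted p under 0.05 by limma (smallest adjusted p = 0.700, Cebpe), where 4 of all genes or 0.0267% did. At an unadjusted p under 0.05, 2 factors were higher, Cebpe and Spi1, against 2.73% of all genes, and 0 were lower, against 3.30% of all genes. The G-CSF arrays lay wholly above the PBS arrays in 3 factors, Cebpb, Cebpe and Spi1, where 5.77% of all genes did so, and wholly below them in 0, where 5.05% did. The median difference of the 7 factors was 0.24 on the log2 scale, against 0.0015 over all genes, with 5 positive and 2 negative.

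**Figure D1:**
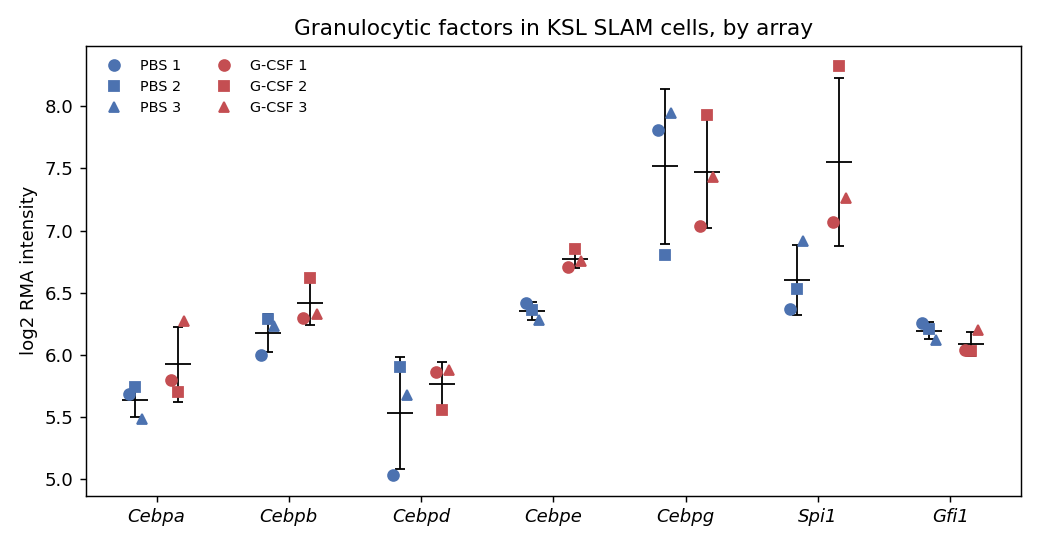
Log2 RMA intensity (vertical axis) of each factor in the 3 PBS arrays (blue) and 3 G-CSF arrays (red), with marker shape giving the replicate number and black bars the mean ± SD of each group. Spi1 and Cebpe are separated between groups, Cebpb by 0.0024 only, and the other 4 factors overlap; heights of different genes are not comparable because each probeset has its own response.

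Cebpa, the steady-state factor, had log2 intensities of 5.68, 5.74 and 5.48 in the PBS arrays and 5.80, 5.70 and 6.27 in the G-CSF arrays. One G-CSF array stood above the rest and another lay inside the PBS range, so the groups overlapped. The difference was 0.29 (SE 0.20, 1.22-fold, 95% interval 0.886- to 1.68-fold, limma adjusted p = 0.941). Without the high array, G-CSF replicate 3, the difference was 0.11.

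Cebpb, the emergency factor, read 5.998, 6.29 and 6.23 with PBS and 6.29, 6.62 and 6.33 with G-CSF. The lowest G-CSF array exceeded the highest PBS array by only 0.0024, a gap far below the SD of either group (0.15 with PBS and 0.18 with G-CSF). The difference was 0.24 (SE 0.17, 1.18-fold, 95% interval 0.898- to 1.56-fold, limma adjusted p = 0.947). The groups overlapped when arrays were quantile-normalized again (difference 0.23) or centred on their medians (0.22).

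Cebpd, the inflammatory C/EBP gene, read 5.03, 5.90 and 5.67 with PBS and 5.86, 5.55 and 5.88 with G-CSF. PBS replicate 1 was low and lay under the filter's limit of 5.15, while the other 5 arrays fell within one range. The difference of 0.23 (SE 0.25, limma adjusted p = 0.966) was -0.02 without that array.

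Cebpg, the dimer partner, varied widely within both groups. It read 7.81, 6.80 and 7.94 with PBS and 7.04, 7.93 and 7.43 with G-CSF, with SDs of 0.62 and 0.45. The groups covered nearly the same range. The difference was -0.05 (SE 0.36, limma adjusted p = 0.999), its 95% interval ran from 0.541- to 1.73-fold, and its sign changed when PBS replicate 1, PBS replicate 3 or G-CSF replicate 1 was left out.

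Cebpe, the late granulocytic C/EBP gene, had tight groups. It read 6.42, 6.36 and 6.28 with PBS and 6.71, 6.85 and 6.75 with G-CSF. All G-CSF arrays lay at least 0.29 above all PBS arrays, a gap larger than the SD of either group (0.07 in each). The difference was 0.42 (SE 0.14, 1.34-fold, 95% interval 1.06- to 1.69-fold), with an unadjusted p of 0.0206 and a limma adjusted p of 0.700. The groups did not overlap under any alternative in which overlap was counted, and the difference ran from 0.38 to 0.45 over all alternatives. Leaving out PBS replicate 3 gave an unadjusted p of 0.0612 by limma, and leaving out G-CSF replicate 2 gave 0.0629, so that call was lost in both.

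Spi1, which encodes PU.1, read 6.36, 6.53 and 6.91 with PBS and 7.06, 8.32 and 7.26 with G-CSF. The groups did not overlap, and G-CSF replicate 2 stood more than 1 unit above the other G-CSF arrays. The difference was 0.95 (SE 0.34, 1.93-fold, 95% interval 1.11- to 3.37-fold), with an unadjusted p of 0.0266 and a limma adjusted p of 0.749. Without G-CSF replicate 2 it was 0.56 (unadjusted p = 0.0434), still without overlap. Leaving out PBS replicate 1 or PBS replicate 2 gave 0.83 (unadjusted p = 0.0818) and 0.91 (unadjusted p = 0.0686).

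Gfi1, the repressor, read 6.25, 6.20 and 6.12 with PBS and 6.04, 6.03 and 6.20 with G-CSF. It varied little in either group, and 1 G-CSF array lay inside the PBS range. The difference was -0.11 (SE 0.14, 0.929-fold, 95% interval 0.734- to 1.18-fold, limma adjusted p = 0.966).

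**Figure D2:**
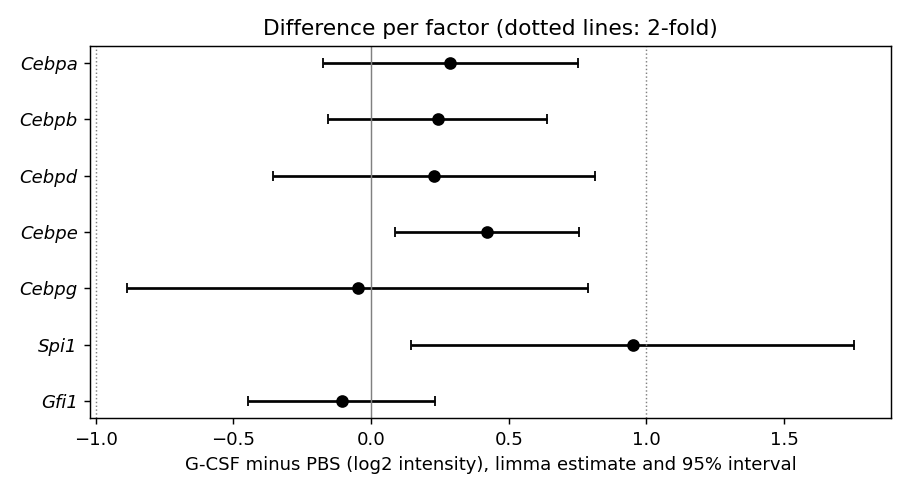
Difference in mean log2 intensity, G-CSF minus PBS (horizontal axis), for each factor, with limma's estimate (point) and 95% interval (bar); dotted lines mark a 2-fold difference in either direction. The intervals of Cebpe and Spi1 exclude 0, and only that of Spi1 reaches past 2-fold.

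Before adjustment for the number of genes, the 95% intervals of 6 of the 7 factors excluded a 2-fold difference in either direction on the array's scale. The exception was Spi1. Intensity differences on arrays can understate differences in transcript number for dim probesets, and none of these intervals speaks to protein. Cebpa and Cebpd were dim, with means of 5.78 and 5.65 over all arrays. Of the genes tested, only 24.4% had a lower mean than Cebpa and 18.8% a lower mean than Cebpd.

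To set the factors against each other, each was taken relative to Cebpa within the same array, which needs no scaling between arrays. Cebpa, the reference in every pair, was dim, with a mean of 5.78 against the filter's limit of 5.15. Cebpb minus Cebpa was 0.31, 0.55 and 0.75 in the PBS arrays and 0.50, 0.92 and 0.06 in the G-CSF arrays. The G-CSF arrays spanned the whole PBS range and went beyond it on both sides. The mean went from 0.54 ± 0.22 to 0.49 ± 0.43 (SD, n = 3 per group), a difference of -0.05 (exact two-sided permutation p = 0.9, adjusted p = 0.9 over 6 pairs). Its sign depended on single arrays, since leaving out PBS replicate 3 gave 0.06 and leaving out G-CSF replicate 3 gave 0.17. No shift from the steady-state to the emergency C/EBP transcript was detectable with these 6 arrays. With 3 against 3 arrays the smallest p this test can give is 0.1, so it could not pass a threshold of 0.05.

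Gfi1 was the only factor of the 6 whose values relative to Cebpa did not overlap between groups. They were 0.57, 0.47 and 0.64 with PBS and 0.24, 0.33 and -0.07 with G-CSF. All G-CSF arrays were lower, by a mean of 0.39 (that is, a difference of -0.39, exact permutation p = 0.1, adjusted p = 0.6 over 6 pairs). That p is the smallest this test can give, and any pair without overlap reaches it. Gfi1 itself differed by -0.11 and Cebpa by 0.29, so the larger part of the -0.39 lay in the reference. The share of all genes without overlap relative to Cebpa was not computed, so the lack of overlap is a description only. Spi1 relative to Cebpa differed by 0.66 (exact permutation p = 0.3), Cebpe by 0.13 (p = 0.6), Cebpd by -0.06 (p = 0.8) and Cebpg by -0.34 (p = 0.7), each with an adjusted p of 0.9 in the same exact test and with overlap between groups.

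**Figure D3:**
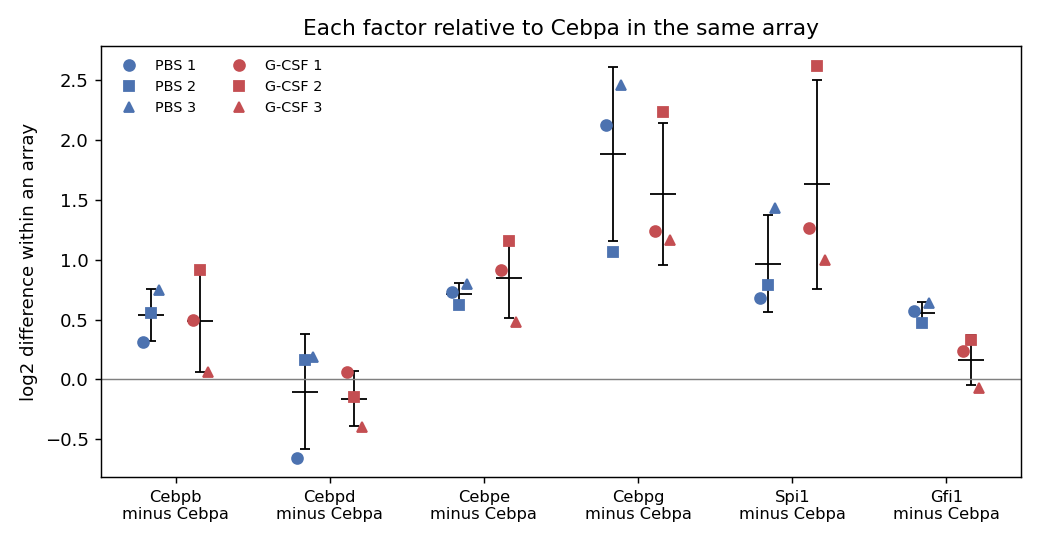
Log2 intensity of each factor minus that of Cebpa in the same array (vertical axis), for PBS (blue) and G-CSF (red) arrays, with marker shape giving the replicate number and black bars the mean ± SD. Cebpb relative to Cebpa spans 0.06 to 0.92 with G-CSF and 0.31 to 0.75 with PBS. Only Gfi1 relative to Cebpa is separated between groups, and the share of all genes so separated was not computed.

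Genes known to lie under these factors were followed in lists. The lists were chosen with earlier results of these data known, so their counts beside the share of all genes are a description only. In bulk RNA, fewer or more cells of a type and less or more RNA per cell cannot be told apart. The list of receptors and primary granule genes linked to C/EBP alpha and PU.1 had 20 of 22 genes with a probeset, all past the filter. Of these, 14 were higher without overlap and 13 had an unadjusted p under 0.05 in that direction, against 5.77% and 2.73% of all genes, and 0 were lower by either measure. The median difference was 0.98, and 0 genes passed after adjustment over all genes. Ctsg (cathepsin G) read 5.82, 5.90 and 7.16 with PBS and 9.001, 9.18 and 8.24 with G-CSF, a difference of 2.51 (SE 0.41, limma adjusted p = 0.177). Mpo (myeloperoxidase) differed by 2.47 (SE 0.45). Cybb and Ncf4, subunits of the phagocyte oxidase, differed by 2.56 (SE 0.54) and 1.31 (SE 0.30). Named after their values were seen, the G-CSF receptor gene Csf3r differed by 1.51 and the integrin gene Itgam by 1.76, while Myb, a progenitor factor, differed by 0.0010.

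Most secondary and tertiary granule genes linked to C/EBP epsilon were higher with G-CSF by the unadjusted test, and 0 passed after adjustment over all genes. Of 18 symbols on the list, which hold Chil3 under both of its names, 17 had a probeset and 16 passed the filter, and Bpi was the one left out as dim. Without the filter, 15 of 17 were higher without overlap, against 5.58% of all genes without the filter, and the same number had an unadjusted p under 0.05 in that direction, against 2.46%. The median difference was 1.65 with the filter and 1.60 without it, and 1.18 without PBS replicate 1. Ltf (lactoferrin) read 8.17, 9.27 and 8.91 with PBS and 10.92, 11.17 and 10.74 with G-CSF, a difference of 2.16 (SE 0.29, limma adjusted p = 0.112). Cxcr2, a neutrophil chemokine receptor, differed by 2.97 (SE 0.47), Lcn2 (lipocalin 2) by 2.06 (SE 0.33) and Hp (haptoglobin) by 2.11 (SE 0.37). None of these 4 passed after adjustment. In the same arrays Cebpe itself differed by 0.42.

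Inflammatory and acute-phase genes linked to C/EBP beta and C/EBP delta mostly had positive differences, and 0 passed after adjustment over all genes. Of 20 listed genes, 19 had a probeset and 15 passed the filter. Without the filter, 16 differences were positive and 3 negative, with a median of 0.36. Of the 19, 6 were higher without overlap, against 5.58% of all genes, and 0 were lower, against 4.44%. The same number, 6, had an unadjusted p under 0.05 by limma in the higher direction, against 2.46%. The acute-phase gene Saa3 read 5.51, 4.55 and 4.52 with PBS and 8.20, 9.92 and 8.74 with G-CSF (limma adjusted p = 0.0627). It passed the filter through its G-CSF arrays, since 2 PBS arrays and the PBS mean lay under the limit. Across its alternatives the adjusted p ran from 0.0314 with quantile normalization again to 0.273. Il1b (interleukin 1 beta) differed by 2.03 (SE 0.48) and Socs3, a feedback inhibitor of cytokine signalling, by 0.52 (SE 0.18). A second Socs3 probeset has lower signal, and with the mean of both the Socs3 difference was 0.25 (unadjusted p = 0.132 by limma), which ends its call at an unadjusted p under 0.05. With the brighter probeset alone, limma's unadjusted p was 0.0686 when PBS replicate 1 was dropped, 0.0563 when G-CSF replicate 2 was, and 0.0528 when G-CSF replicate 3 was. Hp also belongs to this list.

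Genes that Gfi1 is known to repress gave a median difference of 0.06 over the 17 of 20 with a probeset, all past the filter. Of these, 4 were higher without overlap, against 5.77% of all genes, and 2 had an unadjusted p under 0.05 in that direction, against 2.73%. They were Id2, an inhibitor of helix-loop-helix factors (0.95, SE 0.35), and Socs3, whose call was lost with the mean of its probesets. Csf1r, the macrophage growth factor receptor gene, differed by 0.31 (SE 0.15) and Nab2, a corepressor of Egr factors, by 0.24 (SE 0.15), both without overlap. The groups of Csf1r overlapped with quantile normalization again (0.28), and those of Nab2 with arrays centred on the median (0.22). Without PBS replicate 2 the median was 0.18, and without PBS replicate 1 or G-CSF replicate 3, 0 of these genes had an unadjusted p under 0.05 in that direction. The monocytic factor gene Irf8, on this list and named after its value was seen, differed by 0.04. The 4 genes higher without overlap are each on another list too. Id2 and Nab2 are among the partners and modulators, Csf1r among the receptor genes and Socs3 among the inflammatory genes. Of the 17 genes, 8 are shared with the partners and modulators. The counts of these lists are therefore not separate.

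The partners and modulators of the 7 factors had a median difference of -0.03. Of 36 listed genes, all had a probeset and 35 passed the filter, with 16 positive and 19 negative differences. Of these 35, groups did not overlap in 4 higher genes, against 5.77% of all genes, and in 2 lower genes, against 5.05%. Only the lower share is close to its background. Id2 and Nab2, among the higher genes, are also on the list of genes repressed by Gfi1. Stat3, which carries the signal of the G-CSF receptor, read 8.08, 7.87 and 7.53 with PBS and 8.70, 8.94 and 8.56 with G-CSF. The groups did not overlap, and the difference was 0.91 (SE 0.20, limma adjusted p = 0.325). Rara, the retinoic acid receptor alpha gene, differed by 0.53 (SE 0.19) without overlap. The groups of Rara overlapped with arrays centred on the median (0.51). Gata2, a stem cell and megakaryocytic factor, differed by -0.31 (SE 0.15), with all G-CSF arrays lower. Of the list, 3 genes had an unadjusted p under 0.05, all higher, against 2.73% of all genes, and 1 did without G-CSF replicate 3.

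**Figure D4:**
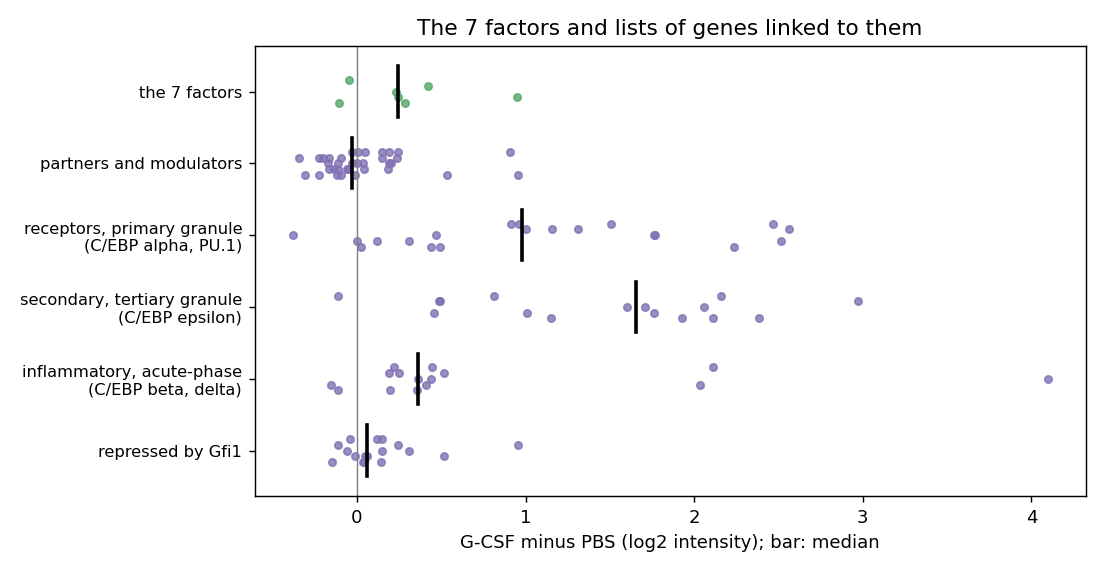
Difference in mean log2 intensity, G-CSF minus PBS (horizontal axis), for the 7 factors (green) and for each gene of the 5 lists that passed the filter (purple), with a black bar at each median. The receptor and primary granule list has a median of 0.98 and the late granule list 1.65, against 0.24 for the factors and -0.03 for their partners; the lists share some genes.

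Most listed markers of more mature myeloid cells were higher in the same arrays. These lists too were chosen with earlier results known, so their counts beside the share of all genes are a description only. The mean log2 intensity of 18 measured mature neutrophil markers of 19 lay between 7.497 and 8.23 in the PBS arrays and between 9.47 and 10.14 in the G-CSF arrays, and 17 of the 18 were higher without overlap, against 5.77% of all genes. The exception was Ly6g, a neutrophil surface marker, which differed by -0.19 with overlap between groups. Of the neutrophil markers Stfa2 and Stfa3 had PBS means under the filter's limit and passed it through their G-CSF arrays. Without them the mean of the other 16 lay between 7.82 and 8.67 with PBS and between 9.69 and 10.44 with G-CSF; this check was added after seeing the data. The mean of 11 granulocyte-monocyte progenitor markers lay between 6.37 and 6.90 with PBS and between 7.56 and 8.45 with G-CSF. Of these, 9 of 11 were higher without overlap, against the same 5.77%. The exceptions were Cd34 (-0.16) and Irf8 (0.04), both with overlap. Both marker means had their highest G-CSF value in replicate 2, as did Spi1, Cebpb and Cebpe. So did Cebpg (7.93), whose difference between groups was only -0.05. Among PBS arrays, Spi1 and the progenitor mean were highest in replicate 3 (6.91 and 6.90), and the neutrophil mean in replicate 2. Cebpg too was highest in PBS replicate 3 (7.94), while Cebpe was lowest there (6.28). Of the 16 late granule genes past the filter, 9 are on the neutrophil marker list. Of the 20 receptor and primary granule genes past it, 6 are on the progenitor list. The part of these cells in the differences of Spi1, Cebpe and the granule genes was not tested.

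**Figure D5:**
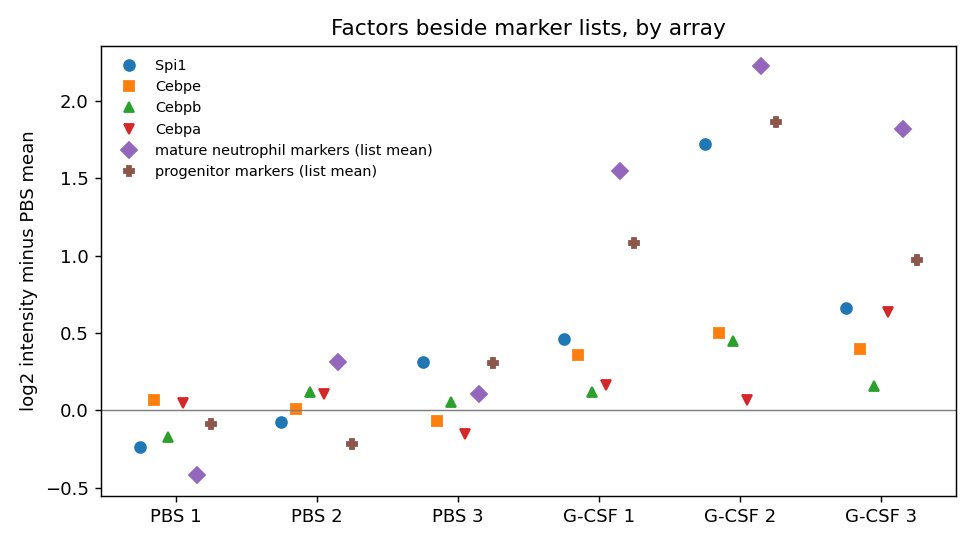
Log2 intensity minus the PBS mean (vertical axis) in each array, for 4 factors and for the mean of the mature neutrophil and progenitor marker lists. In G-CSF replicate 2 Spi1 and both marker means are at their highest, while Cebpa is highest in G-CSF replicate 3. Cebpg, not drawn, also has its highest G-CSF value in replicate 2.

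Markers of the sorted stem cells were measurable in every array. Of 12 such markers 10 had a probeset past the filter, with a median difference of -0.21, and none passed after adjustment over all genes by limma. Hlf, a stem cell transcription factor, read 10.20 to 10.83 over the 6 arrays. Of the 10, 8 differences were negative and 2 positive. Groups did not overlap in 2 lower genes, against 5.05% of all genes, and in 0 higher genes, against 5.77%. The same 2 had an unadjusted p under 0.05 by limma, against 3.30% of all genes. They were Kit, the receptor used in the gate (-0.98), and Tek, a receptor tyrosine kinase gene (-0.48). As for the other lists, these counts are a description only. Medians of the other marker lists were 0.58 for monocytes and macrophages, -0.11 for B cells, -0.04 for T and NK cells, -0.04 for erythroid cells and -0.50 for megakaryocytes, over 6, 3, 3, 5 and 6 genes past the filter. Without the filter they were 0.44, -0.05, -0.05, -0.07 and -0.50 in the same order, over 7, 6, 6, 6 and 6 genes. Array medians of intensity ran from 56.2 to 61.7.

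The genes closest to each factor in pattern were found by the root mean square difference between mean-centred log2 values over the 6 arrays. For Spi1 they were Flot1 (0.06), Cers6 (0.10) and Nmt1 (0.15), each without overlap between groups. For Cebpe they were C2cd4c, Fam83g and Fndc3a (0.04 to 0.05), and for Cebpb Slc27a4, Pmm1 and Ddn (0.03 to 0.06), also without overlap. All were chosen for closeness over the same arrays, so their lack of overlap follows largely from that choice. For Cebpa the nearest were Glis3, Tbx19 and Trabd2b, for Cebpd Kif3b, Pdia3 and Alg3, for Cebpg Zfp318, Cog4 and Anapc2, and for Gfi1 Dand5, Bud23 and Lars2. Among the genes nearest to these other factors only Trabd2b was without overlap. None of the 7 factors was among the 3 nearest genes of another. With 6 arrays and 14994 genes, near matches arise for any flat or noisy profile, so they are a description only.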

How the data were processed

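Values came from 6 single-channel arrays, 3 per group. The authors' deposited values are intensities on a linear scale (2.70 to 19069), summarised by RMA per the submitters' processing notes; no source used here names the software version. Log2 was taken first, because the design had assumed log2 values. Of 35554 probesets, 21789 had 1 gene symbol in the platform annotation, 1621 had several and 12144 were not listed. The dimmest 25% of the first kind by mean over all arrays were left out (limit 5.152), and each gene took its probeset of highest mean. Groups were compared across all 14994 genes with limma 3.58.1 (lmFit, eBayes, R 4.3.3), with Benjamini-Hochberg adjustment, two-sided, threshold 0.05. Differences are G-CSF minus PBS. The fit was tested on simulated data. Within-array differences used exact permutation tests. Figures were drawn with matplotlib 3.10.9. The number of arrays limits the precision.

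The members and gene lists were chosen with earlier results of these data known. Genes named are the members, up to 4 per list with the smallest p, and the 3 nearest in pattern to each member. Csf3r, Itgam, Myb, Irf8, Bpi, Ly6g, Cd34, Hlf, Kit and Tek were named after their values were seen. Alternatives changed the filter, normalization, variance model, probeset rule, replicate block, and arrays left out.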

Additional observations from a re-analysis of the deposited data

How the results depend on the processing

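Under all alternatives, 0 of the 7 factors passed after adjustment. Cebpa, Cebpb, Cebpe, Spi1 and Gfi1 kept their direction in every alternative that could be computed; Cebpa and Cebpd were not tested with the dimmest 50% left out. With single arrays left out, Cebpd ranged from -0.0228 (without PBS replicate 1) to 0.41 and Cebpg from -0.41 to 0.17. Cebpg turned positive in 3 of these: 0.10 when PBS replicate 1 was dropped, 0.16 when PBS replicate 3 was, and 0.17 when G-CSF replicate 1 was. Cebpb minus Cebpa ranged from -0.26 to 0.17 when single arrays were left out, being 0.06 without PBS replicate 3. The count of factors at an unadjusted p under 0.05 ranged from 1 to 2 with single arrays left out. The count of all genes past the threshold was 4, 12 with quantile normalization again, 2 with arrays centred on the median, and 0 to 6 with single arrays left out. Deviations of same-numbered arrays correlated at 0.289, 0.0186 and 0.193, all positive, and those of differently numbered arrays ran from -0.282 to 0.101. The highest of the latter was G-CSF replicate 2 with PBS replicate 3. The numbers were not taken to pair samples in the main fit, and an effect shared by replicate number was not tested. The replicate block changed no call among the factors (Spi1 adjusted p = 0.481, Cebpe 0.604) and gave 5 genes in all. With single arrays left out, the list median ranged from 1.18 to 1.84 for late granule genes and from 0.0123 to 0.18 for genes repressed by Gfi1. The count at an unadjusted p under 0.05 then ranged from 3 to 6 for inflammatory genes, from 1 to 3 for partners and modulators, and from 0 to 2 for genes repressed by Gfi1, which had 1 with the dimmest 50% left out. With quantile normalization again, Saa3 had an adjusted p of 0.0314. The causes were not tested.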
